A study of Rattus norvegicus with 8 samples.

Results

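The 10 genes described here are products of the macrophage, the tissue phagocyte, or genes that macrophages switch on strongly when they take up debris and lipid: Cd68, Csf1r, Mrc1, Cd163, Marco, Msr1, Trem2, Gpnmb, Chi3l1 and Spp1. They were chosen by name, and a probe was assigned to a gene through the RefSeq transcript that the array design gives for it. Of the 10 genes, 9 had a probe, and no probe was matched to Msr1, the class A scavenger receptor. Each of the 9 genes was measured by 1 probe in 1 spot, among the 13888 genes named on the array.

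The study asked which long noncoding RNAs and mRNAs differ in lung tumors that the tobacco-specific nitrosamine NNK produces in rats, and in the blood of such rats. All animals were male F344 rats, an inbred strain, and all samples were taken at week 95. There were 3 normal lung tissues and 3 lung tumors, which the labels call matched, all 6 from NNK-treated rats, and 2 clots from whole blood, 1 from a control rat and 1 from an NNK-treated rat. The tumors were moderately differentiated adenocarcinomas, and no lung of an untreated rat was measured here, so the normal lung carried the NNK exposure as well. One of the label fields of the NNK blood sample repeats the text of lung tumor 3, while its other fields say blood. The summed signal of 6 red blood cell genes was 1940000 on that array and 1920000 on the control blood array, against 221000 to 229000 in normal lung and 132000 to 140000 in lung tumor.

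Macrophages in the lung come from long-lived alveolar cells and from blood monocytes, and their survival depends on signals through Csf1r, the receptor of the growth factors Csf1 and Il34. Cd68 is a membrane protein of their lysosomes. Mrc1 (the mannose receptor), Cd163 (which takes up haptoglobin with haemoglobin), Marco and Msr1 are surface receptors for sugars, modified lipoproteins and particles. Trem2 is a lipid-sensing receptor that signals through the adaptor Tyrobp, and Gpnmb is a transmembrane glycoprotein of lipid-laden macrophages. Chi3l1 is a secreted chitinase-like protein without enzymatic activity, and Spp1 (osteopontin) is a secreted ligand of integrins and Cd44. Several of these genes are also active outside macrophages, among them Spp1, Gpnmb and Chi3l1 in epithelial and tumor cells, Mrc1 in endothelium, and Csf1r in blood monocytes.

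Probes well above background made up 60.3 to 67.9% of each lung array and 53.3 and 53.9% of the control and NNK blood arrays. The 75th percentile of the processed signal was 1191 to 1329 on the lung arrays but 95.36 in control blood and 205.8 in NNK blood, so blood levels were read at lower signal. Slide 1 held all normal lung arrays together with tumor array 1, slide 2 held tumor arrays 2 and 3, and slide 3 held the blood. The mean squared difference between normal lung arrays was 0.465 to 0.787 of that expected from repeated spots, and between tumor arrays 2 and 3 it was 0.464, whereas tumor array 1 gave 3.01 and 3.35 against tumor arrays 2 and 3. Arrays this close (the normal arrays, and tumor arrays 2 and 3) differed by less than the spot noise, so values are also given with each such set averaged to 1 sample. Nothing in the labels says how many rats gave the lung samples, so the p-values measure only the spread between these arrays.

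On the lung arrays 7 of the 9 genes were well above background on all 6 arrays, and these 7 were tested. Marco and Cd163 did not rise well above background on any of the 8, with processed signals of at most 9.37 for Marco and 6.25 for Cd163, and no level is given for either. In the limma fit over 12471 probes, 5 of the 7 genes rose in lung tumor, 1 fell and 1 did not pass, where rose and fell mean an adjusted p of at most 0.05. The background for such changes at any fold was 33.7% of all probes higher and 31.4% lower. With a change of at least 2-fold required as well, 2 of the 7 genes, Chi3l1 and Spp1, were called higher and 0 lower, beside 13.5% of all probes called higher and 15.5% called lower. All 3 tumor arrays lay above all 3 normal arrays for 5 of the 7 genes, as for 38.1% of all probes, and below them for 1, as for 34.8%. The median log2 fold change was 0.38 over the 7 genes and 0.065 over all probes tested. In whole tissue, a change in the number of macrophages and a change in RNA per macrophage cannot be told apart.

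**Figure D1:**
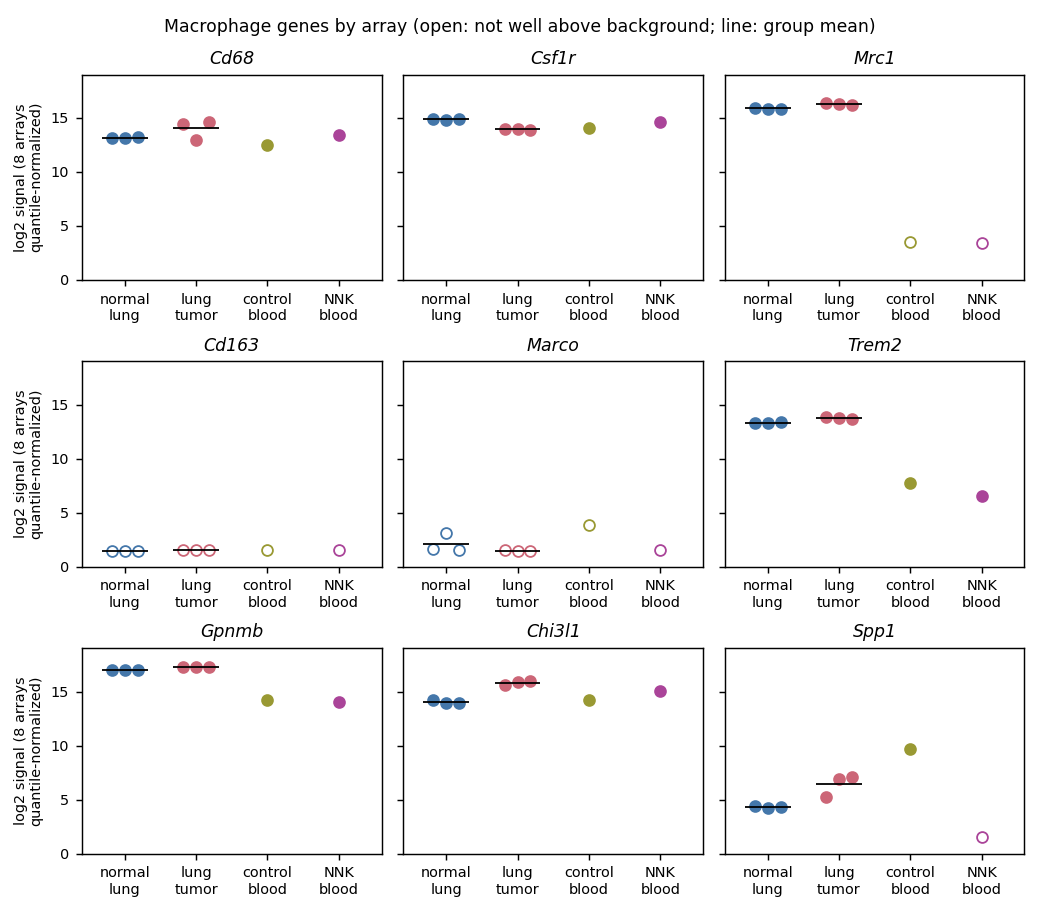
Log2 signal of the 9 macrophage genes with a probe (vertical axis, quantile-normalized over all 8 arrays) in normal lung (3 arrays), lung tumor (3), control blood (1) and NNK blood (1). Each point is an array, open points were not well above background, and lines are means of 3 arrays. Mrc1 and Trem2 were lower in blood than in lung, the points of Cd68, Csf1r and Chi3l1 in blood lie within or near the range of the lung arrays, and Cd163 and Marco have open points throughout.

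Chi3l1 had the clearest rise. Its processed signal was 33200, 31100 and 29000 in normal lung 1 to 3 and 73600, 85600 and 90800 in lung tumor 1 to 3. Every tumor array was thus above every normal array, with no array standing apart within its group. On the normalized log2 scale the level was 14.87 ± 0.12 in normal lung and 16.34 ± 0.18 in lung tumor (SD, n = 3 each). The log2 fold change was 1.47 (SE 0.11, 95% interval 1.18 to 1.76, limma adjusted p = 0.000184), or 2.77-fold. With the slide as a block it was 1.27. Values with this block rest on tumor array 1 alone, the only tumor array that shares a slide with normal lung, and are given without a p. With near-identical arrays averaged to 1 sample it was 1.42 but missed the threshold (adjusted p = 0.0591).

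Spp1 was measured at low signal, and the tumor arrays differed among themselves. The processed signal was 19.2, 21.8 and 19.7 in normal lung and 42.1, 178 and 202 in lung tumor 1 to 3. Tumor array 1 lay between the normal arrays and the tumor arrays of the second slide. The log2 level was 4.45 ± 0.07 in normal lung and 6.76 ± 1.15 in lung tumor (SD, n = 3 each). The log2 fold change was 2.31 (SE 0.57, 95% interval 0.86 to 3.76, limma adjusted p = 0.0162), or 4.97-fold. It was 0.99, just under 2-fold, with the slide as a block and 2.92 without tumor array 1. In tumor arrays 2 and 3 slide and tumor cannot be told apart. With the normexp background correction it was 1.1 (adjusted p = 0.0197). It missed the threshold without tumor array 2 (2.04, adjusted p = 0.0547) and with near-identical arrays averaged (1.98, adjusted p = 0.265).

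Csf1r was the 1 gene of the 7 that fell. The processed signal was 49800, 49400 and 49700 in normal lung and 29000, 27800 and 25900 in lung tumor. The arrays within each group were close and the groups did not overlap. The log2 level went from 15.57 ± 0.07 to 14.80 ± 0.05 (SD, n = 3 each), a log2 fold change of -0.77 (SE 0.062, 95% interval -0.93 to -0.61, limma adjusted p = 0.000215). This 1.7-fold fall was below the 2-fold limit, and in tumor array 1 alone, with the slide as a block, it was -0.74.

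Trem2, Mrc1 and Gpnmb rose by less than 2-fold. The processed signal of Trem2 was 20400, 21800 and 20900 in normal lung and 27800, 24000 and 22800 in lung tumor, a log2 fold change of 0.38 (SE 0.069, limma adjusted p = 0.00508). Mrc1 had 87000, 88200 and 83100 in normal lung and 122000, 110000 and 109000 in lung tumor, a log2 fold change of 0.36 (SE 0.064, limma adjusted p = 0.00452). Tumor array 1 was the highest of the 6 arrays for both genes, and the groups did not overlap. Gpnmb had 146000, 160000 and 149000 in normal lung and 195000, 186000 and 192000 in lung tumor, the smallest of the changes that passed, with a log2 fold change of 0.18 (SE 0.046, limma adjusted p = 0.0163). With the replicate number as a block the change of Gpnmb did not pass (adjusted p = 0.0719), nor did it without any 1 of the normal lung arrays or without tumor array 2 (adjusted p = 0.0563 to 0.0645). That of Trem2 did not pass with a 75th percentile shift (adjusted p = 0.112). With near-identical arrays averaged, the adjusted p was 0.265 for Trem2, 0.275 for Mrc1, 0.536 for Gpnmb and 0.103 for Csf1r, so none of these 4 passed.

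Cd68, the most used macrophage marker of the list, did not pass the test. The processed signal was 18200, 19800 and 18800 in normal lung and 39200, 14700 and 41200 in lung tumor 1 to 3. Tumor arrays 1 and 3 were above all normal arrays, and tumor array 2 was below them. The log2 level was 14.12 ± 0.03 in normal lung and 14.87 ± 0.79 in lung tumor (SD, n = 3 each), a log2 fold change of 0.75 (SE 0.40, 95% interval -0.25 to 1.74, limma adjusted p = 0.149). Without tumor array 2 it was 1.19 (adjusted p = 0.000474), and tumor array 1 alone, with a slide block, gave 1.14. Tumor arrays 2 and 3, otherwise nearly identical, differed by 1.42 on the log2 scale for this 1 spot, while the median difference between them was 0.088 and only 85 of 11545 probes (0.736%) differed by more. The spot carried no outlier mark on any array.

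**Figure D2:**
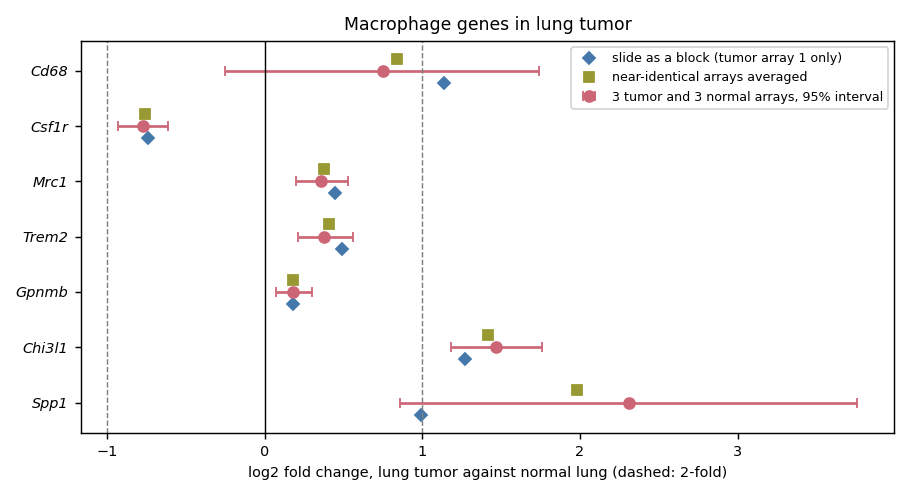
Log2 fold change of the 7 tested macrophage genes (horizontal axis), lung tumor against normal lung. Circles with bars are the limma estimates over 3 tumor and 3 normal arrays with 95% intervals, diamonds the values with the slide as a block (tumor array 1 alone), squares those with near-identical arrays averaged, and dashed lines 2-fold. Csf1r lies left of 0, the interval of Cd68 crosses 0, and the diamond of Spp1 lies at 0.99.

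The 9 genes with a probe were set beside their promoter sequences because the factor that directs the macrophage lineage binds a short sequence that can be searched for. PU.1, the product of Spi1, is the transcription factor that directs monocyte and macrophage genes, and its binding sites hold a purine-rich core. RefSeq promoters of the GRCr8 assembly, 250 bases before to 50 bases after the start of the gene, were searched on both strands for the PU.1 core GAGGAAG, for the AP-1 motif TGANTCA (N is any base) and for the E-box CACGTG, which factors of the MITF and TFE family bind. The 3 motifs do not overlap in their letters. The PU.1 core was found in 6 of the 9 promoters (Cd68, Csf1r, Mrc1, Marco, Trem2 and Gpnmb) and in 12.4% of all 33469 promoters. The AP-1 motif was found in 3 of the 9 (Cd68, Trem2 and Gpnmb) and in 7.33% of all, and the E-box in 0 of the 9 and in 6.42% of all. Chi3l1 and Spp1, the genes called higher, held none of the 3 motifs in this window. These are matches of letters and no binding was measured. The stretches of 29 bases that hold the PU.1 core are shown in the direction of the gene, with the core (or its reverse complement) in capitals, to let the flanks be compared. The core began 4 bases after the start in Cd68 and 36, 104 and 30 bases before it in Mrc1, Marco and Trem2, at chr10:54882420-54882448 (minus strand), chr17:82157678-82157706 (plus strand), chr13:34201342-34201370 (minus strand) and chr9:20151792-20151820 (minus strand). In Csf1r it began 230 bases before the start.
Cd68: gggattgggttGAGGAAGgagctgttaca
Mrc1: aaaagagacagCTTCCTCtcttctccttt
Marco: gaactgggtcaGAGGAAGatctttgtctg
Trem2: agcctcctttcCTTCCTCcctcgtgccct

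The 250 bases before the start are given for Gpnmb (chr4:79340878-79341127, plus strand), which holds both a PU.1 core 181 bases and an AP-1 motif 87 bases before the start, in capitals, and for Chi3l1 (chr13:48193589-48193838, plus strand) and Spp1 (chr14:5619805-5620054, minus strand), which hold none of the motifs and so have no capitals.
Gpnmb: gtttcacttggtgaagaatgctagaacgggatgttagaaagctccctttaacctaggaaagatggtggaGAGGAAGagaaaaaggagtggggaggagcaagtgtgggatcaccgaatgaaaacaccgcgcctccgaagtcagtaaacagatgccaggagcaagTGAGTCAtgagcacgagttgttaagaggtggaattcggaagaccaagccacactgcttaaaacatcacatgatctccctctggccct
Chi3l1: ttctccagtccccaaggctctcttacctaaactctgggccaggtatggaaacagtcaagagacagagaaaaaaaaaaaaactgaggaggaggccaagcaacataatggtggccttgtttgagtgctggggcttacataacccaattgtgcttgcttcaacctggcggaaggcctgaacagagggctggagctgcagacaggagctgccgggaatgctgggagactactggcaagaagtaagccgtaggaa
Spp1: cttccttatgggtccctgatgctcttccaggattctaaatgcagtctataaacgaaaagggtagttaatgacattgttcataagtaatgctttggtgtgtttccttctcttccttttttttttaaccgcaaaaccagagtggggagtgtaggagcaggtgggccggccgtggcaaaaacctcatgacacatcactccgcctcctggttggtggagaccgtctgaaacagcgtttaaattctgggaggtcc

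Across tissues the genes fell into different patterns, read here from log2 values normalized over all 8 arrays, a scale that takes the same distribution of signal for lung and blood. Mrc1 was at 15.86 in normal lung and 16.29 in lung tumor, and was not well above background in control or NNK blood. Against the lowest signal that was well above background in blood, normal lung was at least 2280-fold higher. Trem2 was at 13.34 and 13.77 in normal lung and lung tumor but 7.78 and 6.54 in control and NNK blood, and Gpnmb was at 17.01, 17.27, 14.18 and 14.04 in the same order. Lung was thus above blood for these 3 genes, by more than the spread within either lung group.

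Csf1r, Cd68 and Chi3l1 were near their lung levels in blood on this scale. Csf1r was at 14.86 in normal lung, 14.63 in NNK blood, 14.06 in control blood and 13.93 in lung tumor, where control blood lay just above the highest tumor array, at 13.97. For Cd68, NNK blood (13.41) and control blood (12.52) stood on either side of normal lung (13.17), and NNK blood lay within the range of the tumor arrays, 12.99 to 14.62. Chi3l1 was at 15.79 in lung tumor, 15.02 in NNK blood, 14.17 in control blood and 14.01 in normal lung, and control blood did not differ from normal lung array 1, also at 14.17. Spp1 was highest in control blood, at 9.66, followed by lung tumor at 6.42 and normal lung at 4.33.

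Probes of other genes with the most similar pattern over the 8 arrays were also listed. For Mrc1, Gpnmb and Trem2, which were higher in lung than in blood, they were Ppic, Slc16a11 and Ttc22, each with Pearson's r of at least 0.9997. The gap between lung and blood, which the arrays of a tissue share together with their signal range, enters these values. Spp1, Csf1r and Chi3l1 had no such gap. Spp1 was most like Klf14 (r = 0.9967), Csf1r most like Acnat2 (r = 0.9879) and Chi3l1 most like Rplp2 (r = 0.9832).

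In blood there was 1 array in each group, so differences have no replicate check and no test. Of the 6 macrophage genes compared, 2 were at least 2-fold higher in NNK blood than in control blood, Chi3l1 and Cd68, beside 23.1% of all 14452 probes compared. Spp1 was the 1 gene at least 2-fold lower, beside 19.1% of all probes. The scanner software put the error of the log2 difference at 0.20 for Cd68, Csf1r, Gpnmb and Chi3l1, 0.25 for Trem2 and 1.4 for Spp1, which covers the reading of the spots only.

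The processed signal of Chi3l1 was 2960 in control blood and 8350 in NNK blood, and that of Cd68 was 576 and 1850. After normalization within the 2 blood arrays their log2 differences were 1.31 and 1.1. Both were below 2-fold on other scalings, with a range of 0.38 to 1.31 for Chi3l1 and 0.57 to 1.1 for Cd68. Csf1r had signals of 2640 and 5610, a difference of 0.86 that went to -0.02 with a 75th percentile shift. Trem2 (46.9 and 70.6) and Gpnmb (3000 and 3130) had differences of -0.69 and -0.20, each also beyond 2-fold lower under some settings, with -1.34 and -1.05 as their extremes. Spp1 had a signal of 102 in control blood and was not well above background in NNK blood. With normalization within the 2 blood arrays this makes it at least 7.91-fold lower there. That bound holds for this scale only, as the log2 difference of Spp1 ranged from -8.12 to -1.7 over the alternatives. Counts of other cell genes at least 2-fold higher stand beside 23.1% of all probes. Of the neutrophil genes 3 of the 5 compared were at least 2-fold higher, and their summed signal was 15200 in control blood and 71400 in NNK blood. Most of that sum was S100a8, at 13.71 in control and 16.04 in NNK blood on the log2 scale. Cxcr2 (0.12) and Mmp8 (0.76) stayed under 2-fold. Of the T cell genes 5 of 9 were at least 2-fold higher, with a sum of 35500 and 38700, and of the B cell genes 3 of 5, with a sum of 221 and 982. The part of these cells in the differences was not tested.

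**Figure D3:**
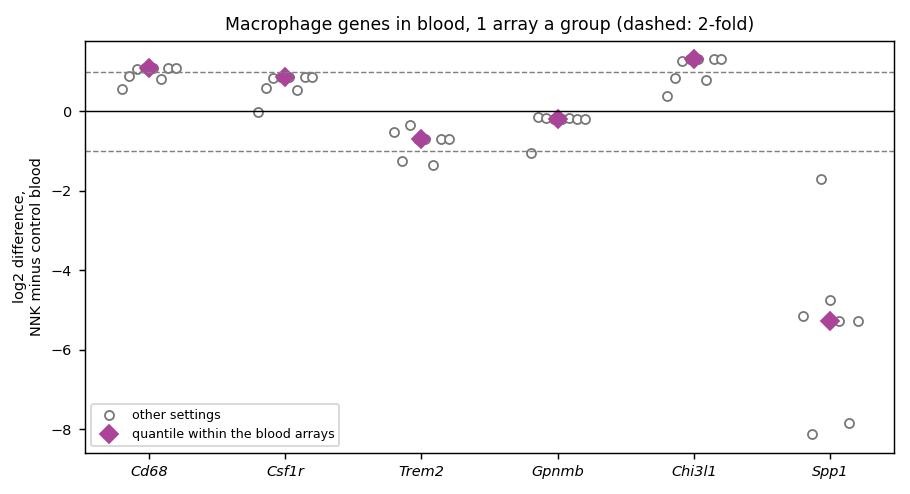
Log2 difference between NNK blood and control blood (vertical axis) for the 6 macrophage genes compared, 1 array each. Diamonds are values normalized within the 2 blood arrays, open circles the other settings, and dashed lines 2-fold. Cd68 and Chi3l1 cross the upper dashed line only under some settings, and Spp1 lies below the lower one under all settings that kept it.

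The partners of these genes were 18 ligands, adaptors and receptors, of which 14 were on the array and 11 tested. Of the 11, 0 were called higher and 3 lower, beside 13.5% and 15.5% of all probes, with a median log2 fold change of -0.81. With outlier-marked spots kept, 14 had a value, with 1 called higher and 3 lower, beside 13.5% and 14.4% of all probes. The median was then -0.31, and the gene called higher was Hp, the haptoglobin gene (2.02). Csf1, the ligand of Csf1r, fell with its receptor: the log2 level was 10.32, 10.42 and 10.61 in normal lung and 8.81, 8.65 and 8.65 in lung tumor, a log2 fold change of -1.75 (SE 0.098, limma adjusted p = 5.42e-05). Il34, the other ligand, was well above background on 2 normal arrays and 1 tumor array, and its difference did not pass (adjusted p = 0.128), except without normal lung array 1 (adjusted p = 0.0203) and with near-identical arrays averaged (adjusted p = 0.0493). The other genes called lower were Il13ra2, a receptor to which Chi3l1 binds, with a log2 fold change of -3.21 (SE 0.20, adjusted p = 8.7e-05), and Itgb5, an integrin chain that binds osteopontin (-1.02, adjusted p = 0.022, or 0.297 with near-identical arrays averaged, and -0.42 when blocked by slide). Cd44, the osteopontin receptor, rose by 0.81 (adjusted p = 0.000378, or 0.121 with near-identical arrays averaged), under 2-fold. Tyrobp, the adaptor of Trem2, was at 16.40 to 16.51 in normal lung and 16.53 to 16.71 in lung tumor, a difference of 0.13 that did not pass (adjusted p = 0.158). In blood, Csf1 and Tyrobp were both 1.85 higher on the log2 scale in NNK blood, with ranges over the alternatives of 1.11 to 3.26 and 0.84 to 1.85.

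Of 40 other macrophage genes, 35 were on the array and 23 tested. Of these, 21 were well above background on at least 1 array of both lung groups, with 3 called higher (Spi1, Maf and Cybb), 0 lower and a median log2 fold change of 0.24. The shares over all probes were 13.5% higher and 15.5% lower, so among these 21 the count of 3 called higher stands near the background. Spi1 was at 11.88 to 11.94 in normal lung and 13.43 to 13.44 in lung tumor, a rise of 1.53 (SE 0.047, limma adjusted p = 8.83e-06). Maf, a transcription factor of resident macrophages, rose by 1.5, and Cybb, the subunit of the phagocyte oxidase, by 1.43 (adjusted p = 0.00254, or 0.057 with near-identical arrays averaged). Cebpa, another myeloid factor, was well above background on the tumor arrays only and so passed the filter through them, with a level at least 2.16-fold that of normal lung. By contrast Adgre1 (F4/80), a surface marker of tissue macrophages, fell by 0.23 on the log2 scale (adjusted p = 0.0102, or 0.0529 with the replicate number as a block), while the complement gene C1qa rose by 0.52 (adjusted p = 0.00102) and the lectin gene Lgals3 by 0.58 (adjusted p = 0.000457). With near-identical arrays averaged none of these 3 passed (adjusted p = 0.431, 0.176 and 0.165). Itgam did not rise well above background on any.

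Of the 31 other macrophage genes that passed the filter on dim probes, 8 were not tested because their spots carried outlier marks, which were more frequent on tumor arrays (9.70 to 16.2% of spots) than on normal arrays (3.29 to 5.49%). With marked spots kept, 7 of the 31 were called higher, counting Cebpa, and 0 lower, beside 13.5% and 14.4% of all probes. The median log2 fold change was then 0.52. Values with marked spots kept include Cd14, the lipopolysaccharide co-receptor (log2 fold change 1.64), and the integrin chain Itgb2 (1.32). Pparg, the factor of alveolar macrophages, had 1.29 and Aif1 0.84, under 2-fold. Fabp4 had 0.45 (adjusted p = 0.10).

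The other scavenger and pattern recognition receptors numbered 20, with 15 on the array and 9 tested, of which 0 were called higher and 1 lower, beside 13.5% and 15.5% of all probes. That gene was Ager, the receptor for advanced glycation end products and a marker of type 1 alveolar cells, with a log2 fold change of -1.37 (SE 0.076, limma adjusted p = 5.11e-05, or 0.0556 with near-identical arrays averaged). Cd36, the fatty acid and oxidized lipoprotein receptor, was at 16.14 in normal lung and 16.19 in lung tumor, a difference of 0.05 (adjusted p = 0.538) that turned to -0.02 with the normexp background correction. With outlier-marked spots kept, 13 receptors had a value, with 1 called higher and 2 lower, beside 13.5% and 14.4% of all probes. The gene called higher was Olr1, with a log2 fold change of 3.49, and Colec12 (-1.27) was called lower beside Ager.

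**Figure D4:**
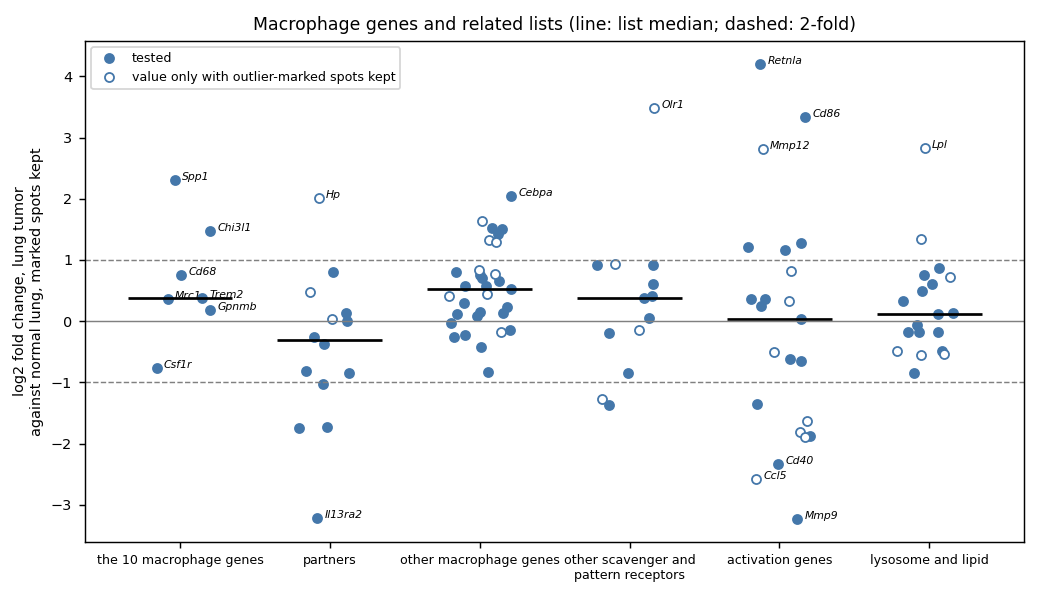
Log2 fold change, lung tumor against normal lung, with outlier-marked spots kept (vertical axis), for the macrophage genes and 5 related lists (horizontal axis). Filled points were tested, open points have a value only with marked spots kept, thick lines are list medians and dashed lines 2-fold. Cebpa, Cd86, Il10 and Mpeg1 were not well above background in normal lung, so their points are fitted values and not bounds. Points above and below 0 occur in every list.

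Markers of other cells also differed between the lung groups, where 15.5% of all probes were called lower and 13.5% higher. The sums given here keep outlier-marked spots and so include genes that were not tested. Endothelial genes were lower in lung tumor (3 of 3 tested called lower), with a summed signal over 4 genes of 233000 to 242000 in normal lung and 47700 to 48400 in lung tumor. Neutrophil genes (1 of 3 called lower) summed to 14200 to 15000 and 3550 to 4360, and T cell genes (2 of 8 called lower) to 29500 to 31000 and 15500 to 17300. Most of the neutrophil sum in normal lung was S100a8, which was not tested. With marked spots kept, S100a8 had a log2 fold change of -2.12 and Csf3r, also untested, -2.4. Among the tested neutrophil genes Mmp8 had -1.92, Camp -0.56 and Cxcr2 -0.5, which did not pass. Of the 7 type 2 alveolar genes tested 0 were called. The sum over 8 type 2 genes, which includes the untested Sftpc, was 1150000 to 1210000 in normal lung and 1360000 to 1420000 in lung tumor. With marked spots kept Sftpc was called higher, with a log2 fold change of 1.14. Of the genes of these lists on the array, 1 of 5 endothelial, 2 of 7 neutrophil and 1 of 10 T cell genes did not pass the filter on dim probes. Hepatocyte genes, of which all 7 that were well above background on at least 1 array of both groups were called lower, summed to 80000 to 82500 in normal lung and 3810 to 5310 in lung tumor. Most of the hepatocyte sum in normal lung was Cyp2e1, at 15.76 on the log2 scale. The part of these differences in the changes of the macrophage genes was not tested.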

How the data were processed

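RNA of 8 samples was hybridised to the Arraystar rat lncRNA array, a 1-colour Agilent array. The deposited scanner files come from Agilent Feature Extraction 10.5.1.1 and give a background-subtracted intensity for each spot, the processed signal. The authors also deposited their own quantile-normalized log2 values, used here as an alternative. Control spots and outlier-marked spots were left out, except that the summed signals of cell type genes keep marked spots. Processed signals on the log2 scale were brought to common quantiles, separately for the 6 lung and the 2 blood arrays, and spots of a probe were averaged. Probes had to be well above background on at least 3 lung arrays or 1 blood array. Lung groups were compared in limma 3.58.1 (R 4.3.3), with Benjamini-Hochberg adjustment over 12471 probes. A call needs 2-fold and an adjusted p of at most 0.05. The number of arrays limits the precision. Symbols came from RefSeq (GRCr8) through the transcript accession for 14274 of 15323 mRNA probes, and a gene with several probes was represented by its brightest. Genes named outside the 10 were those of a written list of names, the called gene with the largest change of each list in each direction, and further genes chosen after their values were seen. Fits were tested on simulated data. The genes and lists were chosen with earlier results of these data known.

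The labels call the lung samples matched, and same-numbered samples were checked for deviating together. The correlations of their deviations from the group means were 0.143, -0.041 and 0.16 for numbers 1, 2 and 3. Samples with unlike numbers gave -0.189 to 0.14. The check cannot decide the pairing, because the normal arrays differed by less than the spot noise. The main fit has no block. Alternatives were other scalings and background corrections, other filters on dim probes, marked spots kept, the authors' values, the methods' t-test and its paired form, the replicate or slide as a block, near-identical arrays averaged, and each array left out. Mean signals were not among the columns, so normexp used median signals. No probe sequences were used here.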

Additional observations from a re-analysis of the deposited data

How the results depend on the processing

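The number of macrophage genes called higher in lung tumor was 2 under most alternatives and when each lung array was left out in turn (2 to 2). It was 1 with the paired form of the methods' t-test, 1 with the slide as a block and 0 with near-identical arrays averaged; no macrophage gene was called lower under any. With the replicate number as a block it was 2, with adjusted p = 0.00452 for Chi3l1 and 0.0327 for Spp1, and of the 7 macrophage genes Gpnmb alone changed its side of an adjusted p of 0.05, as given above. In blood, the number at least 2-fold higher was 0 under quantile normalization of all 8 arrays together, the authors' values and the 75th percentile shift, against 2. The number at least 2-fold lower was 2 under the same 3 settings and with no filter on dim probes, where Marco, not well above background, entered, and 0 with the stricter filter, which left Spp1 out. Of the lung values of the genes of the naming rule under the alternatives, 476 kept their direction and their side of the call (2-fold and adjusted p together), 3 became stronger (Cd68, Il34), 6 weaker (Spp1, Chi3l1, Ager) and 3 reversed: Cd36 to -0.02 with normexp and to 0 with the slide as a block, and Fabp4 to -0.01 with the slide as a block. By adjusted p alone, 38 of the 488 values crossed 0.05, among them 16 of 133 of the macrophage genes (6 of Gpnmb, 3 each of Spp1 and Trem2, and 1 each of the others). For blood, 143 values moved by less than the scanner error and 59 by more. Calls over all probes fell from 1683 higher and 1929 lower to 967 and 1256 with normexp, 1090 and 1477 with the paired t-test, and 778 and 976 with near-identical arrays averaged, and in blood from 3339 and 2757 to 1488 and 839 with normexp. Averaging all probes of a gene changes nothing for these genes, which have 1 probe each. The cause of these differences was not tested, except that averaging arrays leaves 3 samples. Spp1 in lung, and Trem2 and Spp1 in blood, were read at low signal.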

Other observations

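Genes of macrophage activation moved in both directions. Of 32 genes on that list, 31 were on the array and 15 tested. Of these, 13 were well above background on at least 1 array of both lung groups, with 3 called higher and 4 lower, beside 13.5% and 15.5% of all probes. Retnla, a secreted product of interleukin 4 stimulation in macrophages and lung epithelium, was at 13.49, 13.32 and 13.35 on the log2 scale in normal lung and 17.64, 17.54 and 17.62 in lung tumor, a rise of 4.21 (SE 0.068, limma adjusted p = 3.52e-06). Il1rn, the antagonist of interleukin 1, rose by 1.27, and the haem oxygenase Hmox1 by 1.17, but with near-identical arrays averaged neither passed (adjusted p = 0.051 and 0.0572). Cd86 and Il10 were well above background on the tumor arrays only and passed the filter through them, with levels at least 3.05-fold and at least 1.65-fold those of normal lung. On the lower side, the gelatinase Mmp9 went from 9.54 to 9.61 in normal lung to 6.14 to 6.74 in lung tumor, a log2 fold change of -3.23 (SE 0.17, limma adjusted p = 4.49e-05), and Cd40 (-2.33, adjusted p = 0.0563 with near-identical arrays averaged), Ccl4 (-1.88) and Vegfa (-1.36) were lower as well. Arg1 rose by 0.28 (adjusted p = 0.0262, or 0.112 with the replicate number as a block and 0.0618 to 0.0776 without any 1 of the normal lung arrays), under 2-fold, and Nos2 was not well above background in lung. With outlier-marked spots kept, 23 genes of the list had a value. Of these 6 were called higher, counting Cd86 and Il10, and 8 lower, beside 13.5% and 14.4% of all probes. Among genes with a value only in this way, the elastase gene Mmp12 had a log2 fold change of 2.81. Il1b (-1.63), Ccl3 (-1.81), Ccl5 (-2.58) and Il4r (-1.89) were called lower.

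Of 27 genes of lysosomes and lipid handling, 19 were on the array and 13 tested. Limma called 0 in either direction, beside 13.5% of all probes higher and 15.5% lower, and the median log2 fold change was 0.11. At an adjusted p of at most 0.05 and any fold, 5 were higher and 4 lower, beside 33.7% and 31.4% of all probes. Lipa, the lysosomal lipase, and the cathepsin gene Ctss rose by 0.88 and 0.75, while Ctsl, without a value on tumor array 1, fell by 0.78. With near-identical arrays averaged, which leaves 1 normal sample, Lipa was at 0.88 and Ctss at 0.73, and Ctsl had no value. With marked spots kept, Lpl, the lipoprotein lipase, had 2.83 and Abca1, the cholesterol exporter, 1.35.

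In blood, Apoe, a lipoprotein that Trem2 binds, was not well above background on the NNK array. With normalization within the 2 blood arrays it was at least 9.13-fold lower there, and Nos2 at least 6.19-fold higher. Over the alternatives the log2 differences ranged from -8.46 to -2.07 for Apoe and from 1.45 to 7.62 for Nos2. There was 1 array in each group and no test.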
